A study of Mus musculus with 22 samples.

Results

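The MAGE genes that lie outside the Prader-Willi syndrome (PWS) interval, *Maged1*, *Maged2*, *Magee1*, *Mageh1* and *Nsmce3*, were examined together with *Trim27* and *Usp7*, the partners of MAGEL2, in the neonatal brain of PWS mice. The 7 genes were taken by name from the deposited count tables, where all 7 were found among 55409 genes in the PWS-cr table and 55406 in the PWS-IC table, and all 7 passed the filter on low counts in every comparison. RNA-sequencing was performed on whole brains at postnatal day 0. PWS-cr mice (label HET PWS-Cr) inherited from the father a deletion of the critical interval, which holds the *Snord116* snoRNAs and *Ipw*, while PWS-IC mice (label HET PWS-ICdel) inherited from the father a deletion of the imprinting centre, and each model was compared with its wild-type (WT) littermates. Of 22 labelled libraries 20 had counts: 6 PWS-cr and 5 WT pups from 4 litters, and 4 PWS-IC and 5 WT pups from 2 litters. The 6 PWS-cr pups were 3 females and 3 males and their WT littermates 2 females and 3 males, whereas all 4 PWS-IC pups were labelled female and 4 of their 5 WT littermates male. Litter 2 of the PWS-cr series had only a PWS-cr pup, which adds nothing to a genotype effect once litter is in the model.

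MAGE proteins share a MAGE homology domain, through which they bind RING-type ubiquitin ligases and change what these ligases act on. MAGEL2 binds the ligase TRIM27 and the deubiquitinase USP7 and directs them to the WASH complex on endosomes, where ubiquitination of WASH promotes actin assembly and the recycling of membrane proteins by retromer. *Ndn* encodes NECDIN, a growth suppressor of postmitotic neurons, and MAGED1 (also named NRAGE) is a MAGE protein that binds the p75 neurotrophin receptor and NECDIN. NSMCE3 (also named MAGEG1) is the MAGE subunit of the SMC5/6 complex, which acts in DNA repair, and MAGED2 is known for its part in renal salt transport before birth. *Ndn* and *Magel2* lie in the PWS interval and are expressed from the paternal chromosome, so that the imprinting centre deletion removes both, and the question addressed here is whether the related genes and the partners of MAGEL2 stood at other levels when both were lost.

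The 7 genes were spread over 4 chromosomes of the mm10 assembly and all were protein coding. *Maged1* (ENSMUSG00000025151, chrX:94535474-94542143, minus strand), *Maged2* (ENSMUSG00000025268, chrX:150806370-150814345, minus strand), *Magee1* (ENSMUSG00000031227, chrX:105120378-105123927, plus strand) and *Mageh1* (ENSMUSG00000047238, chrX:153036166-153037575, minus strand) were X-linked. *Nsmce3* (ENSMUSG00000070520, chr7:64867052-64872997, minus strand) lay on the chromosome of *Ndn* and *Magel2*, 2.49 Mb beyond *Magel2*. *Trim27* (ENSMUSG00000021326, chr13:21179445-21194724, plus strand) and *Usp7* (ENSMUSG00000022710, chr16:8689595-8792308, minus strand) were autosomal. *Magee1*, *Mageh1*, *Nsmce3*, *Ndn* and *Magel2* each consisted of 1 exon in the annotation, while *Maged1* had 8 exon blocks, *Maged2* 13, *Trim27* 10 and *Usp7* 32. The libraries were unstranded, but no exon base of the 7 genes was shared with an exon of another annotated gene.

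The RefSeq promoter windows (GRCm38.p6) matched all 7 genes with 10 windows, *Maged2* having 4, and their starts need not be those of the gene models above. The 250 bases before the start of *Maged1*, *Maged2*, *Magee1* and *Nsmce3* are shown, because each held at least 1 of a pair of related motifs that the windows of *Mageh1*, *Trim27* and *Usp7* lacked, and that of *Ndn* is shown beside them as the MAGE gene of the interval with a match. Capitals mark 2 motifs, searched on both strands: the letters GCATGCGC, and GCGC followed by any base and TGCGC. Both are forms of the palindrome bound by NRF1, they overlap in GCGCATGCGC, and they were chosen after the sequences had been read.
*Maged1* upstream window, chrX:94542026-94542275, minus strand: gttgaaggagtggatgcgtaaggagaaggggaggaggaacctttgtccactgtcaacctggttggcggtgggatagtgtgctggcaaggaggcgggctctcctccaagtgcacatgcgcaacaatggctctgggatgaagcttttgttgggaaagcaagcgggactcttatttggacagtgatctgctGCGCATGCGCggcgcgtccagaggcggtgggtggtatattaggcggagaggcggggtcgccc
*Maged2* upstream window, chrX:150812980-150813229, minus strand: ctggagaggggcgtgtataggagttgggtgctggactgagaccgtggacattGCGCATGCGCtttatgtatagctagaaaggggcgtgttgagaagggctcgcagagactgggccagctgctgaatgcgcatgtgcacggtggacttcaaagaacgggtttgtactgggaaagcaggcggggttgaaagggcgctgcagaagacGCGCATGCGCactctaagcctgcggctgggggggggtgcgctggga
*Magee1* upstream window, chrX:105120128-105120377, plus strand: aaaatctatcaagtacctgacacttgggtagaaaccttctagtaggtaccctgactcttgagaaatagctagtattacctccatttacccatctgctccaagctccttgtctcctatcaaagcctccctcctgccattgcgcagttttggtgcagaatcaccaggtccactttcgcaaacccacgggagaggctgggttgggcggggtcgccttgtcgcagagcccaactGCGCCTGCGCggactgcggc
*Nsmce3* upstream window, chr7:64873041-64873290, minus strand: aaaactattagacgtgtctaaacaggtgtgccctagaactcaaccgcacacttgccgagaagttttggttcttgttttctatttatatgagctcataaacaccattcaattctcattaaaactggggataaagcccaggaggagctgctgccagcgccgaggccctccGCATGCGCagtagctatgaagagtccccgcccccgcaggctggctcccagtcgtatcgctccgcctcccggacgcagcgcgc
*Ndn* upstream window, chr7:62348027-62348276, plus strand: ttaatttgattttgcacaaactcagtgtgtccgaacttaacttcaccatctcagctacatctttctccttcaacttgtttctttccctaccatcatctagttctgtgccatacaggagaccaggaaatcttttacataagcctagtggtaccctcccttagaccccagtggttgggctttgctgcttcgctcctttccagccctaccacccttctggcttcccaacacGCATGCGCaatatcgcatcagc
The palindrome GCGCATGCGC stood 1 time in the *Maged1* window and 2 times in the *Maged2* window, *Magee1* held GCGCCTGCGC and not the shorter motif, and *Nsmce3* and *Ndn* held the shorter motif alone. Of the 4 *Maged2* windows 2 had no match. Of the 7 genes, 4 had a match to either motif in at least 1 window, compared with 5.72% of 27025 genes (1547), and 5.05% of all 32851 windows held one. Because the motifs were chosen from these windows, these shares are no test of enrichment. The printed windows of *Maged1*, *Maged2*, *Magee1* and *Nsmce3* held C followed by G 14, 16, 10 and 16 times, beside a median of 6 over all windows. Those of *Mageh1*, *Trim27* and *Usp7*, without a match, held it 11, 12 and 55 times. The *Magel2* window had no match. A match describes these letters only and no binding was measured.

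The labels were first checked against the counts. *Snhg14*, the host transcript of the deleted *Snord116* array, lay between 41.8 and 48.8 CPM (counts of a gene relative to all counts of its library, scaled by TMM) in the 6 PWS-cr pups and between 131 and 158 CPM in their WT littermates. *Ndn* stood at 15.9, 16.1 and 14.1 CPM in PWS-IC pups 1_10, 4_4 and 4_5 (litter and pup number) and at 506, 544, 499 and 467 CPM in WT pups 1_1, 1_5, 4_3 and 4_6. A pair of libraries went against their labels. The library labelled PWS-IC female 1_3 had 899 CPM of *Ndn* and 1.38 CPM of *Xist*, and the library labelled WT male 1_7 had 11.0 CPM of *Ndn* and 2032 CPM of *Xist*. *Snrpn*, another paternally expressed gene of the interval, stood at 390 CPM in 1_3 and 5.59 CPM in 1_7. The Y-linked *Eif2s3y* stood at 68.7 CPM in 1_3 and 0.147 CPM in 1_7. Library 1_3 also stood apart across the transcriptome, with 68.1% of 22367 genes outside the range of the other 7 libraries (1_7: 19.7%) and a median correlation with the others of 0.964 (0.988 to 0.992 for the rest). *Snhg14*, at 18.6 to 24.1 CPM in PWS-IC pups 1_10, 4_4 and 4_5 and 155 to 212 CPM in the 4 WT pups, stood at 18.7 CPM in library 1_7 but at 70.0 CPM in library 1_3, between the groups. The PWS-IC fits were therefore made on the 7 libraries without 1_3 and 1_7 (3 PWS-IC, 4 WT) and on all 9 as labelled. Total counts were 45798407 to 55563780 a library in the PWS-cr series and 49063929 to 62103143 in the PWS-IC series, and all 8 neuronal markers (*Tubb3*, *Rbfox3*, *Snap25* and others) were counted in every library.

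The 7 genes differed widely in abundance in WT brains. Levels between genes are compared in TPM as deposited, which scale counts by gene length to the same sum in each library, over the 9 WT pups other than 1_7, and the authors normalised the 2 series separately. *Maged1* was the most abundant at 635 ± 41.4 TPM (SD, n = 9), with a range of 568 to 712. *Magee1* (242 ± 18.8) and *Maged2* (228 ± 22.7) followed, and their ranges overlapped. *Mageh1* (121 ± 3.61) and *Usp7* (113 ± 9.66) came next, again with overlapping ranges. *Trim27* stood at 34.7 ± 2.59 TPM and *Nsmce3* at 17.1 ± 0.700 TPM, each apart from its neighbours. In the same pups *Ndn* stood at 400 ± 122 TPM and *Magel2* at 39.5 ± 11.1 TPM, so that the mean of *Maged1* exceeded that of *Ndn* and each of *Maged1*, *Magee1*, *Maged2*, *Mageh1* and *Usp7* exceeded the mean of *Magel2*. The SDs of *Ndn* and *Magel2* mix the series, whose WT pups did not overlap. *Ndn* stood at 233 to 390 TPM in the PWS-cr series and 490 to 555 TPM in the PWS-IC series, and *Magel2* at 37.6 to 58.1 and 22.0 to 35.5 TPM. The paper kept the models apart because their WT littermates differed. In library 1_3 *Maged2* (314 TPM) stood above *Magee1* (196 TPM), the opposite order, as it did in PWS-cr pup 3_5 (231 and 224 TPM).

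**Figure D1:**
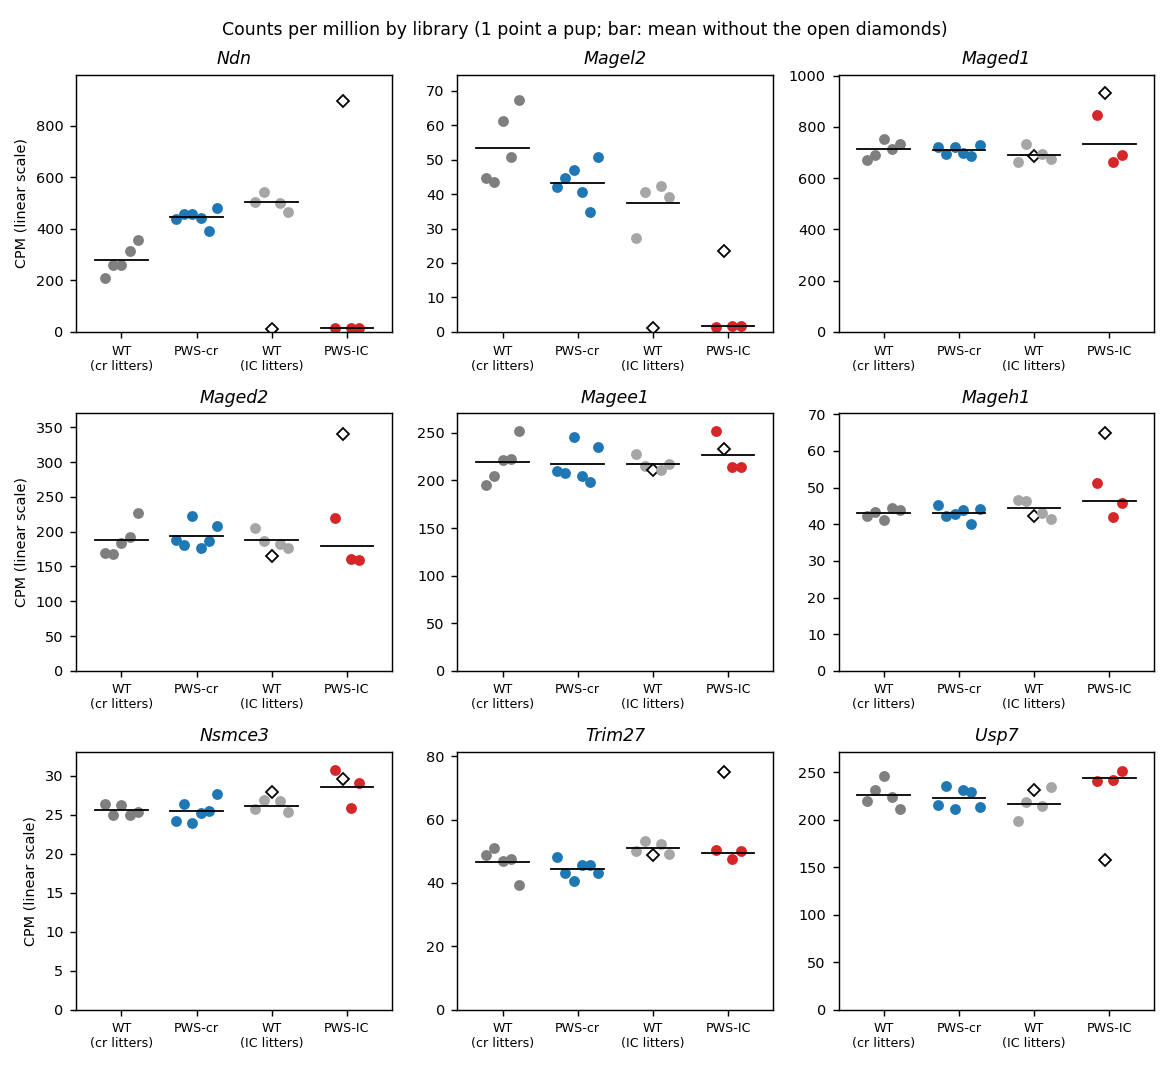
CPM (y axis, linear from 0) of *Ndn*, *Magel2* and the 7 genes in each library (1 point a pup), by group on the x axis; bars are group means without the open diamonds, which are libraries 1_3 and 1_7 of the PWS-IC series. *Ndn* and *Magel2* fell to near 0 in the 3 filled PWS-IC points, while the points of the 7 genes overlapped WT, except *Usp7*, whose 3 PWS-IC points (241 to 251 CPM) lay above the 4 filled WT points (199 to 235 CPM). Of all genes tested on these libraries 10.3% did not overlap in CPM, and on the deposited TPM scale *Usp7* did overlap.

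Most of the MAGE family was not counted at a testable level. Names absent from the tables were not measured, and how reads shared between similar genes were counted was not examined. Of 33 family names, 26 were in each table, and 10 passed the filter of 10 counts in 4 libraries: *Ndn*, *Magel2*, the 5 MAGE genes above, *Magee2*, *Magef1* and *Mageb3*. The other 16 were *Magea* and *Mageb* genes, whose family branch is known for expression in the germ line and in tumours, and no library held more than 6 counts of any of them. In each series 10 were never counted, which in the shallowest library allows up to 0.0655 CPM in the PWS-cr series and 0.0611 CPM in the PWS-IC series (3 counts, counting error only). *Mageb3* was the exception in its branch, with 6 to 21 counts a library in the PWS-cr series and 8 to 24 in the PWS-IC series.

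In PWS-cr mice no change was found in any of the 7 genes. At an adjusted p under 0.05 (edgeR quasi-likelihood test, litter in the model) 0 of 7 were called, against 0.0135% of the 22172 genes tested, and at an unadjusted p under 0.05 again 0 of 7, against 2.07%. *Maged1* lay at 686, 709 and 730 CPM (lowest, median, highest) in the 6 PWS-cr pups and at 670, 689, 755, 715 and 734 CPM in the 5 WT pups, with a log2 fold change of 0.01 (SE 0.0477, 95% interval -0.09 to 0.12). The largest difference upwards was that of *Maged2*, with 177, 187 and 223 CPM in PWS-cr and 169, 168, 184, 192 and 227 CPM in WT (log2 fold change 0.10, SE 0.0781, -0.07 to 0.28, edgeR adjusted p = 1.00). The largest downwards was that of *Trim27*, at 40.6, 44.4 and 48.2 CPM in PWS-cr and 48.7, 50.9, 47.0, 47.5 and 39.3 CPM in WT (-0.09, SE 0.0710, -0.25 to 0.07). The groups overlapped for all 7 genes, as for all but 0.171% of genes tested. *Magee1* (0.02), *Mageh1* (-0.01), *Nsmce3* (0.01) and *Usp7* (-0.02) had log2 fold changes nearer 0. Over the 7 genes the 95% intervals reached from 15.7% below to 21.3% above WT, so that larger differences of the mean lay outside them. Of the MAGE genes of the interval, *Ndn* lay at 393, 449 and 482 CPM in PWS-cr and at 211, 259, 261, 314 and 359 CPM in WT, above every WT pup, with a log2 fold change of 0.75 (SE 0.0948) that missed the threshold in edgeR (adjusted p = 0.0621) and passed it in DESeq2 (adjusted p = 2.13e-12). *Magel2* had a log2 fold change of -0.26 (SE 0.132, edgeR adjusted p = 1.00).

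In PWS-IC mice, where *Ndn* and *Magel2* were lost, none of the 7 genes was called either. With libraries 1_3 and 1_7 left out, *Ndn* fell with a log2 fold change of -5.01 (SE 0.0781, edgeR adjusted p = 4.1e-11) and *Magel2* with -4.57 (SE 0.155, edgeR adjusted p = 2.11e-08). *Magel2* stood at 1.49 to 1.71 CPM in the 3 PWS-IC pups against 27.3 to 42.4 CPM in the 4 WT pups. Of the 7 genes, 0 passed an adjusted p of 0.05, against 0.242% of the 21913 genes tested (53), and 1, *Usp7*, had an unadjusted p under 0.05, against 12.8%. In a whole brain, fewer cells of a type and less RNA per cell cannot be told apart.

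*Usp7*, the deubiquitinase that protects TRIM27 from its own ubiquitination, had the largest difference. It lay at 241.0, 241.7 and 251.3 CPM in PWS-IC pups 1_10, 4_4 and 4_5 and at 198.8, 219.1, 214.7 and 235.2 CPM in WT pups 1_1, 1_5, 4_3 and 4_6. All 3 PWS-IC pups were above all 4 WT pups on this scale and within each litter, a separation shown by 10.3% of all genes tested. The log2 fold change was 0.17 (SE 0.0590, 95% interval 0.04 to 0.30, unadjusted p = 0.0155, edgeR adjusted p = 0.306), and the adjusted p ranged from 0.167 to 0.597 over 13 other settings. On the deposited TPM scale the groups overlapped, at 109, 122 and 127 TPM in PWS-IC and 95.5, 106, 107 and 117 TPM in WT. In library 1_3, labelled PWS-IC, *Usp7* was lowest at 158 CPM (60.9 TPM), and in library 1_7, labelled WT, it stood at 232 CPM (112 TPM). With all 9 libraries the log2 fold change was -0.00 (SE 0.121, -0.27 to 0.27).

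*Trim27*, the ligase that MAGEL2 binds, showed no such separation. It lay at 50.6, 47.6 and 50.1 CPM in PWS-IC and at 50.1, 53.2, 52.2 and 49.1 CPM in WT, with a log2 fold change of -0.04 (SE 0.0604, -0.17 to 0.10, edgeR adjusted p = 0.820). The 2 partners of MAGEL2 thus had log2 differences of 0.17 and -0.04 on the same 7 libraries, neither past the threshold.

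The MAGE genes outside the interval overlapped between groups. *Maged1* lay at 846, 665 and 691 CPM in PWS-IC pups 1_10, 4_4 and 4_5 and at 663, 734, 694 and 674 CPM in WT, with a log2 fold change of 0.11 (SE 0.0743, -0.05 to 0.27, edgeR adjusted p = 0.544). *Nsmce3* lay at 30.8, 25.8 and 29.0 CPM in PWS-IC and at 25.7, 26.8, 26.8 and 25.3 CPM in WT (0.14, SE 0.0735, -0.02 to 0.31, edgeR adjusted p = 0.430). *Mageh1* (0.10, SE 0.0619), *Magee1* (0.08, SE 0.0567) and *Maged2* (-0.03, SE 0.0721) gave edgeR adjusted p-values of 0.515, 0.550 and 0.897. Pup 1_10 was the highest of the 7 libraries in *Maged1*, *Maged2*, *Magee1*, *Mageh1* and *Nsmce3*. Without it the log2 fold changes were -0.01 for *Maged1*, 0.0038 for *Magee1*, 0.06 for *Mageh1*, 0.08 for *Nsmce3* and -0.17 for *Maged2*. Of the 7 log2 fold changes 5 were above 0 and 2 below, with a median of 0.10, beside a median of 0.00 over all genes tested. The 95% intervals of the 7 genes reached from 12.1% below to 23.6% above WT. These intervals are of the fit without sex. With sex in the model *Maged1* stood at 0.29, above its interval here, so that the bounds depend on that choice.

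With all 9 libraries as labelled, the intervals widened to between 17.2% below and 54.1% above WT. None of the 7 genes was called, nor was any other gene by edgeR (0% of 22367), although the unadjusted p was under 0.05 for 8.23% and DESeq2 gave 1 call. The groups overlapped in CPM for all 7 genes, while 2.29% of genes did not overlap. *Mageh1* had the smallest unadjusted p of the 7 (0.0411, log2 fold change 0.23, SE 0.0978, edgeR adjusted p = 0.565), and *Maged2* the largest log2 fold change (0.25, SE 0.168). Library 1_3 held 340 CPM of *Maged2*, 934 CPM of *Maged1* and 65.0 CPM of *Mageh1*, and 5 of the 7 genes (*Maged1*, *Maged2*, *Mageh1*, *Trim27* and *Usp7*) lay outside the range of the other 7 libraries there. The sum of deposited FPKM over all genes, which rises when counts shift to shorter genes, was 316489 in library 1_3 and 259057 to 276415 in the other 8, and its part in these values was not tested.

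**Figure D2:**
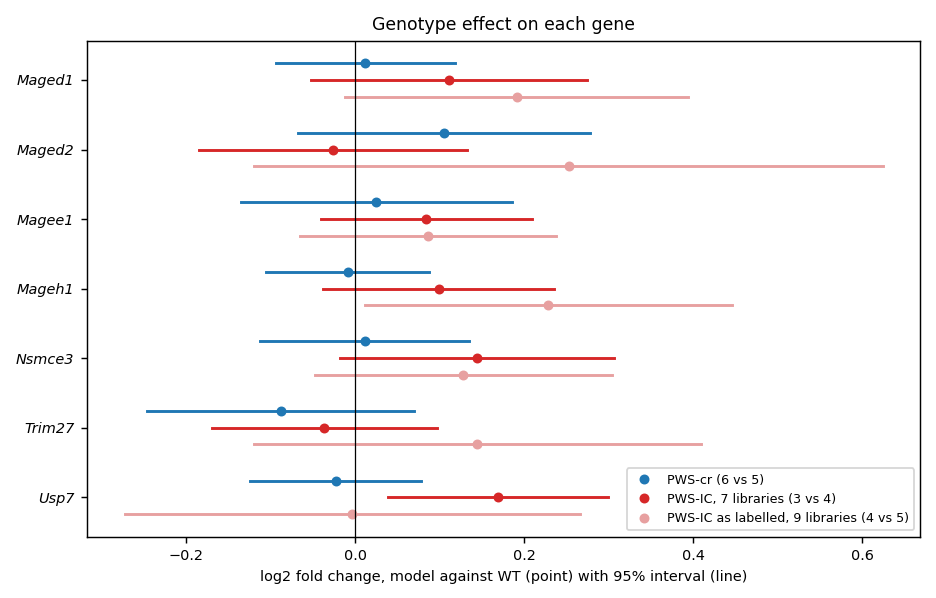
Log2 fold change of each gene against WT littermates (x axis, points) with its 95% interval (lines) from the edgeR fits of PWS-cr, of PWS-IC on 7 libraries and of PWS-IC as labelled. The intervals of the 7 genes crossed 0 except that of *Usp7* on the 7 libraries (0.04 to 0.30) and that of *Mageh1* as labelled (0.01 to 0.45), and no gene passed the threshold after adjustment.

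Summed over genes, the transcripts of the 5 MAGE genes outside the interval had overlapping levels in pups with and without *Ndn* and *Magel2*. The sum of *Maged1*, *Maged2*, *Magee1*, *Mageh1* and *Nsmce3* was 1313, 1159 and 1195 TPM in the 3 PWS-IC pups and 1183, 1223, 1201 and 1179 TPM in the 4 WT pups. *Ndn* and *Magel2* together gave 16.2, 18.3 and 16.4 TPM in PWS-IC and 533, 588, 559 and 523 TPM in WT. They made up 31.5% ± 0.791 (SD, n = 4) of the TPM of these 7 MAGE genes in WT and 1.38% ± 0.169 (n = 3) in PWS-IC. The total over the 7 MAGE genes was 1747 ± 49.1 TPM in WT and 1239 ± 79.5 TPM in PWS-IC, and no PWS-IC pup reached the lowest WT pup (1702 TPM). In the PWS-cr series the 5 MAGE genes summed to 1274 ± 44.3 TPM in PWS-cr (n = 6) and 1280 ± 79.1 TPM in WT (n = 5), while *Ndn* and *Magel2* summed to 519 ± 34.9 TPM in PWS-cr and 351 ± 65.7 TPM in WT, without overlap (459 to 559 against 272 to 448). The share of *Ndn* and *Magel2* in that series was 28.9% ± 1.07 in PWS-cr and 21.4% ± 2.33 in WT, so that the WT share differed between the series. Libraries 1_3 and 1_7 gave 743 and 12.1 TPM of *Ndn* and *Magel2* together, each outside the other pups of its label.

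**Figure D3:**
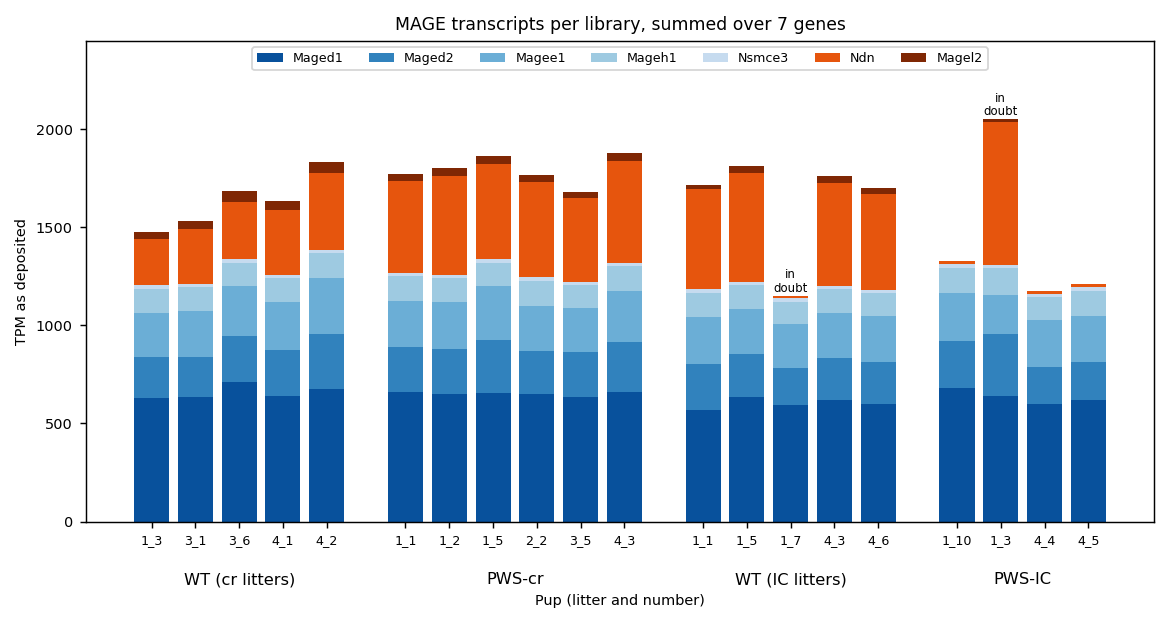
Deposited TPM of *Maged1*, *Maged2*, *Magee1*, *Mageh1* and *Nsmce3* (blue) and of *Ndn* and *Magel2* (orange, brown), stacked for each pup (x axis, litter and pup number) by group. The blue part stayed between 1137 and 1385 TPM in all 20 libraries, while the orange and brown part was 16.2 to 18.3 TPM in PWS-IC pups 1_10, 4_4 and 4_5 and 523 to 588 TPM in WT pups 1_1, 1_5, 4_3 and 4_6.

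The difference between the models was tested in 1 fit over 18 libraries, as the PWS-IC effect minus the PWS-cr effect. It was called for *Ndn* (-5.76, SE 0.137, edgeR adjusted p = 1.93e-13) and *Magel2* (-4.31, SE 0.232, edgeR adjusted p = 6.78e-09) and for 0.182% of the 23574 genes tested, but for 0 of the 7 genes. At an unadjusted p under 0.05 there was 1 of the 7, against 8.16% of genes tested. This was *Usp7*, with a log2 difference of 0.19 (SE 0.0741, 0.03 to 0.35, unadjusted p = 0.0198, edgeR adjusted p = 0.549). *Maged2* was the only 1 of the 7 with a negative difference (-0.13, SE 0.116), and the intervals of the 7 genes reached from 23.1% below to 27.4% above no difference. The models came from different litters, so that litters and model cannot be told apart in this contrast beyond each model's own WT littermates. The paper describes sequencing of both models in parallel, and the labels give no sequencing batch.

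Sex was examined because 4 of the 7 genes are X-linked and genotype nearly coincided with sex in the PWS-IC series. In the PWS-cr series, with 5 females and 6 males, 0 of the 7 genes differed between the sexes (against 0.0316% of genes tested, and 2.71% at an unadjusted p under 0.05, again 0 of 7). The X-linked genes had female minus male log2 differences of 0.03 (*Maged1*), 0.06 (*Maged2*), 0.07 (*Magee1*) and -0.02 (*Mageh1*), and that of *Usp7* was -0.01 (SE 0.0454, -0.11 to 0.09). With sex added to the PWS-IC fit on 7 libraries, in which 1 WT pup was female, *Usp7* gave 0.28 (SE 0.0926, edgeR adjusted p = 0.167), *Maged1* 0.29 and *Nsmce3* 0.23.

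Of the other testable MAGE genes, none was called in any comparison. *Magee2*, an X-linked relative of *Magee1*, had log2 fold changes of 0.07 (SE 0.0653) in PWS-cr and -0.10 (SE 0.0744) in PWS-IC on 7 libraries, and it was lower in females than males at an unadjusted p of 0.0291 (-0.13, SE 0.0503, edgeR adjusted p = 1.00). *Magef1*, whose protein directs a ubiquitin ligase to a factor of iron-sulphur cluster assembly, gave -0.01 (SE 0.0819) and 0.17 (SE 0.0909). *Mageb3* gave 0.32 (SE 0.336) and -0.08 (SE 0.327), both resting on the few counts given above. With all 9 libraries as labelled the PWS-IC values were -0.19 (SE 0.0978) for *Magee2*, 0.06 (SE 0.11) for *Magef1* and -0.26 (SE 0.312) for *Mageb3*.

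The genes that act with these proteins were described in 7 further lists, and no member of them was called in either model. PWS-IC values are given first on the 7 libraries and then on all 9 as labelled, and several changed sign between these. The WASH and retromer list holds the complex that MAGEL2, TRIM27 and USP7 act on. Of its 20 genes, all tested, 16 had a positive log2 fold change in PWS-cr (median 0.03), 10 in PWS-IC on 7 libraries (median -0.00) and 14 as labelled (median 0.06), beside medians of 0.00 over all genes in each fit. *Snx27*, a sorting nexin of the recycling route, gave -0.17 (SE 0.0676, edgeR adjusted p = 0.352) on 7 libraries and -0.13 (SE 0.0782) as labelled. *Capza1*, an actin capping subunit, gave -0.28 (SE 0.102, edgeR adjusted p = 0.326) and -0.20 (SE 0.113). *Tbc1d5*, which inhibits RAB7 on retromer, gave 0.20 (SE 0.124) in PWS-cr. For the SMC5/6 complex, the partners of NSMCE3, 3 of 8 genes were positive in PWS-cr (median -0.01), 6 of 8 in PWS-IC on 7 libraries (median 0.09) and 4 of 8 as labelled (median 0.04). *Eid3* had the largest value on 7 libraries at 0.56 (SE 0.170, edgeR adjusted p = 0.275) and stood at 0.15 (SE 0.355) as labelled, where *Nsmce1*, the RING subunit that NSMCE3 binds, stood at 0.41 (SE 0.157, edgeR adjusted p = 0.565).

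Genes linked to USP7 showed no called change in their RNA. USP7 acts on proteins, whose levels were not measured. Of 14 substrates, 4 were positive in PWS-cr (median -0.02), 9 in PWS-IC on 7 libraries (median 0.08) and 6 as labelled (median -0.01). *Mdm2*, the ligase of p53 that USP7 stabilises, stood at -0.01 (SE 0.0367) in PWS-cr, at 0.15 (SE 0.0675, edgeR adjusted p = 0.398) on 7 libraries and at -0.11 (SE 0.172) as labelled. Of 12 p53 target genes, 7 were positive on 7 libraries and 8 as labelled. *Trp53inp1* stood at 0.32 (SE 0.0636, edgeR adjusted p = 0.105) on 7 libraries and at 0.06 (SE 0.174) as labelled, and *Bbc3* at -0.28 (SE 0.0984, edgeR adjusted p = 0.314) and 0.19 (SE 0.246), with the opposite sign. Among 21 other ubiquitin-specific proteases the median was -0.01 in PWS-cr, 0.02 on 7 libraries and -0.02 as labelled. *Usp16* and *Usp30* had log2 fold changes of 0.19 and 0.17 on 7 libraries, of the size of that of *Usp7* (edgeR adjusted p = 0.338 and 0.339), and of 0.03 and 0.16 as labelled. Among 17 other TRIM proteins the medians were -0.00 in PWS-cr, -0.03 on 7 libraries and -0.02 as labelled, with *Trim2* at -0.18 (SE 0.0720) and -0.23 (SE 0.0824) in PWS-IC. Of 21 partners of NECDIN and MAGED1, 13 were positive on 7 libraries (median 0.02) and 10 as labelled (median -0.00). On 7 libraries *Msx1* (-0.49, SE 0.131) and *E2f3* (-0.32, SE 0.0983) had the smallest p-values of this list (edgeR adjusted p = 0.231 and 0.280), and as labelled they stood at 0.07 (SE 0.298) and -0.27 (SE 0.102).

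Of the cell type markers tested in the 7 PWS-IC libraries 1 was called, the globin gene *Hbb-bt* (1.08, SE 0.174, edgeR adjusted p = 0.0365), against 0.242% of all genes, and none was called as labelled or in PWS-cr. All 7 of the 8 listed red cell markers that were in the table had a positive log2 fold change on the 7 libraries (median 0.93), and 5 of 7 as labelled (median 0.33). None was at 0 in any library, and their summed level was 440 to 674 CPM in PWS-IC against 138 to 328 CPM in WT, with 391 CPM in library 1_3 and 1013 CPM in library 1_7. Other lists leaned down on the 7 libraries without a call. Negative were 7 of 8 oligodendrocyte lineage markers (median -0.24, 2 at an unadjusted p under 0.05, summed level 272 to 315 CPM in PWS-IC and 297 to 436 CPM in WT) and 7 of 8 microglia markers (median -0.12, 2 at an unadjusted p under 0.05, 66.5 to 95.8 CPM and 79.7 to 114 CPM). Negative too were 8 of 8 markers of meninges and fibroblasts (median -0.12) and 7 of 8 of choroid plexus (median -0.15), none of these 4 lists having a marker at 0. As labelled, 5 of 8, 1 of 8, 4 of 8 and 2 of 8 markers of these lists were negative. On the 7 libraries an unadjusted p under 0.05 was reached by 12.8% of all genes tested, and by 5 of 7 red cell markers, all upwards. At this threshold 2 of 8 astrocyte and radial glia markers were down and 1 up, and 1 of 8 choroid plexus markers was down. In PWS-cr the caudal hindbrain and spinal cord list had the largest median (1.76, 5 of 8 genes positive), at a summed level of 0.636 to 37.8 CPM in PWS-cr and 0.689 to 12.8 CPM in WT. The part of these cells in the values of the 7 genes was not tested.

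Between pups of the same litter and genotype, *Maged2* and *Magee1* varied together and *Trim27* in the opposite direction. Log2 CPM was centred on each of 6 litter and genotype groups with at least 2 of the 18 libraries, which left 13 libraries and 7 independent deviations, and correlations are given as a description of these libraries. *Maged2* and *Magee1* correlated at r = 0.96, *Magee1* and *Trim27* at -0.85 and *Maged2* and *Trim27* at -0.78. In the PWS-cr series alone (7 libraries, 4 independent deviations) these were 0.99, -0.84 and -0.81, and in the PWS-IC series alone (6 libraries, 3 independent deviations) 0.65, -0.92 and -0.57. Among the 3 PWS-cr pups of litter 1, for example, *Maged2* stood at 189, 181 and 223 CPM, *Magee1* at 210, 208 and 246 CPM and *Trim27* at 48.2, 43.0 and 40.6 CPM, with pup 1_5, the last of them, highest in the first pair of genes and lowest in *Trim27*. The other pairs of the 7 genes lay between -0.60 (*Maged2* and *Usp7*) and 0.61 (*Mageh1* and *Trim27*).

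**Figure D4:**
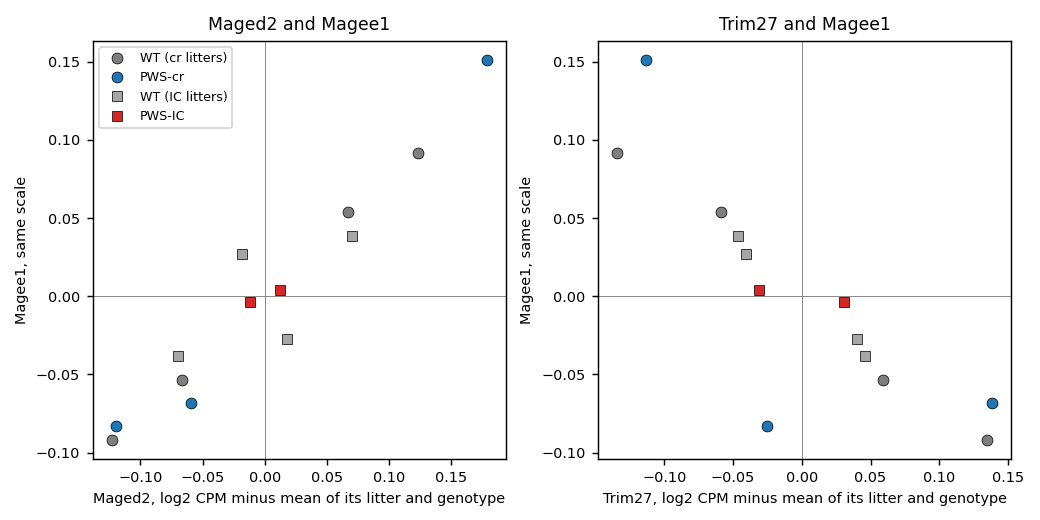
Deviation of log2 CPM from the mean of a pup's litter and genotype group, for *Magee1* (y axes) against *Maged2* (left) and *Trim27* (right), 1 point for each of 13 pups. Points rise from left to right for *Maged2* (r = 0.96) and fall for *Trim27* (r = -0.85), and groups of 2 pups give points mirrored about 0.

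Among 10599 genes with a mean of at least 10 CPM, the genes most like *Maged2* were *Ube2n*, a ubiquitin-conjugating enzyme (r = 0.99), and *Tril* (0.99), and those most like *Magee1* were *Slc17a6*, a vesicular glutamate transporter found mainly in subcortical neurons (0.99), and *Zmat4* (0.99). For *Trim27* they were *A330084C13Rik* (0.98) and *Erh* (0.97), for *Usp7* *Ppfia1* and *Med17* (0.97 each), for *Maged1* *Trip6* and *Tm2d3* (0.98 each), for *Mageh1* its relative *Magef1* (0.94) and *Polr2d* (0.94), and for *Nsmce3* *Dbf4* (0.93) and *Gpalpp1* (0.92). These are the highest of 10599 correlations over 7 independent deviations, so that values this high can arise from picking the highest alone. Whether they exceed that was not tested. The summed level of the 8 astrocyte and radial glia markers followed *Maged2* (r = 0.95) and *Magee1* (0.88) and ran against *Trim27* (-0.77) over the same 13 libraries. That of the 8 olfactory bulb markers did the reverse (-0.85, -0.84 and 0.66), as did neurons (-0.85, -0.78 and 0.59). Endothelium (0.91, 0.81 and -0.51) and oligodendrocyte lineage (0.87, 0.80 and -0.68) went with the astrocyte list. Of the remaining lists only red cells (-0.22, -0.14 and 0.16) had the signs of the olfactory bulb list. The caudal hindbrain and spinal cord list gave 0.75, 0.70 and -0.55, and its summed level ran from 0.483 to 38.3 CPM over the 18 libraries, with up to 4 of its 8 genes at 0. For *Usp7*, the lists that ran against it most were microglia (-0.82), endothelium (-0.77), astrocytes and radial glia (-0.68), oligodendrocyte lineage (-0.66) and choroid plexus (-0.63). Caudal hindbrain and spinal cord (-0.51) and meninges and fibroblasts (-0.42) followed, while olfactory bulb (0.55), neurons (0.50) and red cells (0.37) ran with it. Microglia, oligodendrocyte lineage, choroid plexus and meninges and fibroblasts also leaned down in the 7 PWS-IC libraries, where *Usp7* was higher. Endothelium did not (5 of 8 markers positive). These points share libraries and depth, and the part of tissue make-up in these correlations was not tested.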

How the data were processed

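Whole brains at postnatal day 0 were measured by poly-A RNA-sequencing (paired, unstranded). The authors mapped reads to mm10 with STAR, made the deposited raw counts per gene with featureCounts, and removed 1 library per series after clustering. The authors also deposited signal values, which are the raw counts divided by a size factor per library, and FPKM and TPM values, which scale these by gene length. The tables also hold the authors' own DESeq2 fold changes and p-values, which were not used. The DESeq2, STAR and featureCounts versions are not given in the sources used here. Raw counts were the base of all tests, the deposited TPM of levels between genes, and the deposited FPKM of the check of levels and of the library totals.

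Groups follow the labels. The quasi-likelihood test of edgeR 4.0.16 in R 4.3.3 (glmQLFit, glmQLFTest) was applied after TMM scaling, in a model of litter plus genotype. A gene was tested where 4 or more libraries held 10 or more counts of it, and it was called where its p, adjusted by Benjamini-Hochberg over every gene tested, was under 0.05. The standard error is the log2 fold change over the square root of F, and 95% intervals use the total degrees of freedom of the fit. CPM are scaled by TMM over all libraries of a series. The PWS-IC comparison was made as labelled and without libraries 1_3 and 1_7, and labels were never exchanged. Likeness is Pearson's r of log2 CPM (prior count 2). Positions are from GENCODE M21 on mm10, which holds 55144 of 55409 genes of the PWS-cr table, and promoter windows from RefSeq (GRCm38.p6). The edgeR and DESeq2 1.42.0 scripts were tested on simulated counts.

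The 7 genes, the 8 gene lists and the 12 marker lists were chosen with earlier results of these data known. Named were the 7 genes, *Ndn*, *Magel2*, other testable MAGE genes, called genes and the 2 genes with the smallest unadjusted p of each further list in PWS-cr and in PWS-IC on 7 libraries (of which the text gives examples), called markers, the 2 most alike genes of each of the 7, and *Snrpn*, *Xist* and Y-linked genes for labels; *Snhg14* was added after its values were seen. Alternatives were DESeq2, RLE scaling, other filters, models without litter or with sex, and the removal of each library. Total counts of 45798407 to 62103143 a library set the precision, and the 7 genes rest on 1103 counts or more in each library. Each library is 1 pup by its label, and p-values measure the spread between pups of these few litters.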

Additional observations from a re-analysis of the deposited data

Results flagged for a closer look

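In library 1_3, labelled PWS-IC, *Trim27* stood at 74.9 CPM, far from the nearest PWS-IC library (50.6 CPM), and *Usp7* at 158 CPM, far from the nearest (241 CPM). These were the only 2 of 35 combinations of gene and group with a library this far from the others, and about 1 in 20 such groups is marked by chance. The same library holds 899 CPM of *Ndn*, against its label.

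The effect of genotype differed between the models for *Ndn* (PWS-IC minus PWS-cr, log2 -5.76) and *Magel2* (-4.31), both called in the fit over 18 libraries.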

How the results depend on the processing

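In all 82 alternative fits 0 of the 7 genes was called, and their smallest adjusted p over the fits was 0.979 in PWS-cr, 0.198 in PWS-IC as labelled, 0.167 on the 7 libraries, 0.326 for the difference between models and 0.598 between sexes. No paired analysis was possible because the labels tie pups to each other by litter alone, and litter was already in the fits.

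The number of all genes called moved more. It was 3 in PWS-cr, 7 with DESeq2 and 10 with no filter; 0 in PWS-IC as labelled, 1 with DESeq2, 471 with no filter and 53 without the pair in doubt, and 0 to 1 when each library was left out. On the 7 libraries it was 53, 227 with DESeq2, 978 with no filter, 31 with 10 counts in every library, 174 with sex, and 28 to 55 with 1 library left out. For the difference between models it was 43, and 0 with all 9 PWS-IC series libraries. Between sexes it was 7, 16 with DESeq2, 11 without litter, and 7 to 42 with 1 library left out.

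Of 182 log2 fold changes of the 7 genes under other settings, 13 changed sign, all of uncalled values. Without litter in PWS-cr these were *Maged1* -0.0080, *Magee1* -0.016, *Mageh1* 0.0015 and *Nsmce3* -0.0062, and between sexes *Usp7* 0.0010. In PWS-IC as labelled *Usp7* was 0.017 with no filter, 0.021 without litter, 0.085 with sex and 0.17 without the pair in doubt, where *Maged2* was -0.027 and *Trim27* -0.037. On the 7 libraries *Trim27* was 0.028 with sex, and with all 9 libraries *Maged2* was 0.16 for the difference between models.

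With 1 library left out, log2 fold changes in PWS-cr ranged from -0.037 to 0.056 (*Maged1*), -0.066 to 0.091 (*Magee1*), -0.041 to 0.026 (*Mageh1*) and -0.057 to 0.061 (*Nsmce3*), and that of *Ndn* from 0.55 to 0.85, past the threshold in 1 of these fits. In PWS-IC as labelled they ranged from -0.026 to 0.24 (*Trim27*) and -0.093 to 0.15 (*Usp7*), and on the 7 libraries from -0.011 to 0.15 (*Maged1*) and -0.17 to 0.016 (*Maged2*). For the difference they ranged from -0.012 to 0.15 (*Maged1*) and -0.0099 to 0.15 (*Magee1*). Between sexes they ranged from -0.018 to 0.069 (*Maged1*), -0.0093 to 0.20 (*Maged2*), -0.013 to 0.095 (*Nsmce3*), -0.15 to 0.011 (*Trim27*), -0.051 to 0.025 (*Usp7*) and -0.021 to 0.27 (*Magel2*). The 28 calls came without WT pup 4_3, and the 42 without PWS-cr pup 4_3. With FPKM in place of TPM the ratio of *Maged1* to *Nsmce3* stayed within the spread between pups. This check could hardly have come out otherwise, because FPKM and TPM of a library differ by a common factor that leaves ratios between genes unchanged. The cause of these shifts was not tested.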
